A study of Homo sapiens with 8 samples.

Results

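The genes described here encode the 5 REL/NF-kB transcription factor subunits (NFKB1, NFKB2, REL, RELA and RELB) and 5 proteins of the IkB family (NFKBIA, NFKBIB, NFKBIE, NFKBIZ and BCL3), 10 genes in all. They were picked by name from the deposited gene table of 29004 loci, 26863 of which carried a gene name, and each of the 10 genes had exactly 1 locus. AB8/13 is an immortalized human podocyte cell line, and the cells used here were 1 stable line of it with a doxycycline-inducible LATS2 wild-type construct. They were grown at the permissive temperature, at which such podocytes divide and are not differentiated. LATS2 is the Hippo pathway kinase that phosphorylates the co-activator YAP. In the 4 LATS2 OE samples the construct was switched on for 8 h with 125 ng/mL doxycycline, and 4 samples of the same line stayed untreated. All LATS2 OE samples received the drug and no untreated sample did, so doxycycline itself and LATS2 cannot be told apart.

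NF-kB dimers are held in the cytoplasm by the inhibitory IkB proteins until the IKK kinases mark these for destruction, which frees the dimers to enter the nucleus. Their target genes include several of their own inhibitors, above all NFKBIA, so the pathway carries a negative feedback loop. BCL3 and NFKBIZ are atypical IkB proteins that work in the nucleus, where they bind dimers of p50 or p52 on DNA and change what these do to their target genes.

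BCL3 stood apart from the other genes of the family. LATS2 OE cells held 3.07-fold more BCL3 RNA than untreated cells did, with a log2 ratio of 1.62. This direction rests on how a lost decimal point was put back, with the authors' ratio cell as the key to its place. The digits of BCL3 alone would also allow a log2 ratio of -1.70. The ratios of LATS2 and of the other genes of the family rest on the same key. NFKBIA, which encodes the main inhibitor IkB-alpha, followed at a distance with a 1.24-fold higher value (log2 ratio 0.32). The other 8 genes, all 5 subunits among them, had log2 ratios between -0.09 and 0.16. FPKM values, fragment counts scaled by the length of the transcripts and by the number of mapped fragments of the library, were deposited as 1 pooled value per group. They give no value of a single sample, no SD and no test across the 4 and 4 samples from the values themselves, and the test columns that the authors deposited were not used. The spread between replicates against which a ratio should be read is not known.

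Promoter sequences of the genes with the highest and the lowest ratios are given first, since NF-kB itself binds many promoters of this family. Each is the run of 250 bases before a RefSeq start site in build GRCh38.p14, written 5′ to 3′ along the gene, and capitals mark matches to the kB consensus, the DNA element that NF-kB dimers bind, on either strand. The BCL3 run lies at chr19:44748458-44748707 (plus strand), the NFKBIA run at chr14:35404750-35404999 (minus strand) and the NFKB1 run, the first of 2 listed start sites, at chr4:102501109-102501358 (plus strand).
BCL3: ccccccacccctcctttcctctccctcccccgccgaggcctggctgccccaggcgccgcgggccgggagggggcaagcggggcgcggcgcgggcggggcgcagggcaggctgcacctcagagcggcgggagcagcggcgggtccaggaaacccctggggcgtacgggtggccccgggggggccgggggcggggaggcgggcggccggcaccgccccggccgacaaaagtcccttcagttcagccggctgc
NFKBIA: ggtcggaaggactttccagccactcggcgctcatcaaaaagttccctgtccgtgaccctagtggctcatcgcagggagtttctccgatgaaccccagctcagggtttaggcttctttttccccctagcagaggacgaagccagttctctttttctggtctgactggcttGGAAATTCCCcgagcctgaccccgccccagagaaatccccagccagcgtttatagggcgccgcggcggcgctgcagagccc
NFKB1: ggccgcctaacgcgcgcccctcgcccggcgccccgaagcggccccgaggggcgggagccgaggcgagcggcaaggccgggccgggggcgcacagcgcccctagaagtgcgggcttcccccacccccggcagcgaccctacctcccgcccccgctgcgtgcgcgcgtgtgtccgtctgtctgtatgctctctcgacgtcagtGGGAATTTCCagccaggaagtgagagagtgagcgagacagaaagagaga

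Of the 10 genes, 8 were matched in the RefSeq promoter table, with 14 start sites. A kB match was found in 8 of these 14 windows and for 6 of the 8 genes, against 9.96% of all 35116 windows of the same length and 11.8% of 27305 genes. BCL3, with the highest ratio, had no match in its window. NFKB1, with the lowest, had 1 match starting 49 bases before the start site, and the match of NFKBIA started 81 bases before it. REL had 2 matches shifted by 1 base against each other, and NFKB2, NFKBIB and NFKBIZ had matches in 1 or more windows, while RELA had none. The genes without a match, BCL3 and RELA, had log2 ratios of 1.62 and 0.06. The core of the element bound by TEAD factors, the DNA-binding partners of YAP, was searched as GGAATG on both strands. It was found in 1 of the 14 windows, at the second start site of NFKB1, against 11.9% of all windows. These are matches of letters in a short window and not measured binding.

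LATS2 was 20.1-fold higher in LATS2 OE cells, a log2 ratio of 4.33, and no other named locus that reached 1 FPKM in both groups had a higher one. This value too rests on the ratio cell, and the digits of LATS2 alone would also allow a log2 ratio of 1.01. The locus does not separate the construct from the endogenous gene. Of 10 podocyte markers, 5 had at least 1 FPKM in both groups (PODXL, SYNPO, CD2AP, ACTN4 and PLA2R1), WT1 was below 1 FPKM, and NPHS1, which encodes the slit diaphragm protein nephrin, had 0.00616 FPKM in LATS2 OE cells and 0.00875 FPKM in untreated cells. None of 5 leukocyte and 4 endothelial markers reached 1 FPKM in both groups, and of 4 tubular markers only AQP1 did.

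The level of each of the 10 genes is known only up to a power of 10. The table lost the decimal point from most FPKM values between 1 and 1000, and only the digits remain. The digits alone do not fix the ratio of the groups either. With the authors' ratio cell as the key, 1 ratio was left for each of the 10 genes, and both values of a gene then shift together between its possible levels. For BCL3 the digits and the ratio cell allow 12.9 FPKM in LATS2 OE cells against 4.19 FPKM in untreated cells, or 129 against 41.9 FPKM. All 10 genes had at least 1 FPKM in both groups, and so all 10 passed the filter used below.

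**Figure D1:**
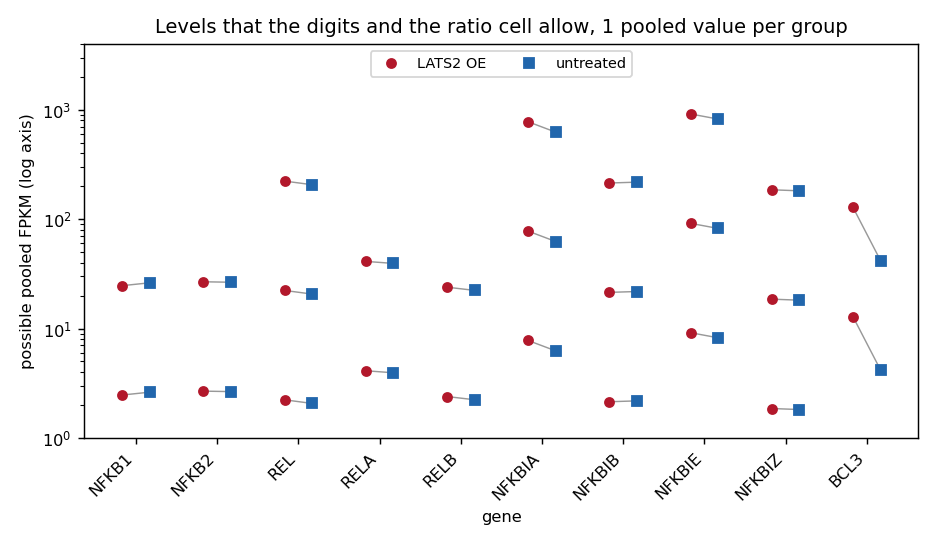
Pooled FPKM values that the deposited digits and the ratio cell together allow for each of the 10 genes, on a log axis, with LATS2 OE as circles and untreated as squares, joined for each possible level. The slope between the groups is the same at every possible level of a gene, and it is steep for BCL3 only, with 12.9 against 4.19 FPKM or 129 against 41.9 FPKM.

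Among the subunits, RELA, the p65 protein with the main transactivation domain of the classical pathway, had 4.11 or 41.1 FPKM in LATS2 OE cells and 3.94 or 39.4 FPKM in untreated cells. Its log2 ratio was 0.06. NFKB1, which encodes p105 and its DNA-binding product p50, had 2.47 or 24.7 FPKM in LATS2 OE cells and 2.62 or 26.2 FPKM in untreated cells, a log2 ratio of -0.09. It had the lowest ratio of the 10 genes. REL, the c-Rel subunit best known from lymphocytes, had 2.23, 22.3 or 223 FPKM in LATS2 OE cells and 2.07, 20.7 or 207 FPKM in untreated cells. Its log2 ratio of 0.11 was the highest of the subunits, a value 7.98% above the untreated one. A lncRNA of the same strand overlaps an exon at the 3′ end of REL, and reads there cannot be assigned to 1 of them.

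The subunits of the non-canonical branch gave similarly small ratios. NFKB2, which encodes p100 and its product p52, had 2.68 or 26.8 FPKM in LATS2 OE cells and 2.65 or 26.5 FPKM in untreated cells, a log2 ratio of 0.01. RELB, the usual partner of p52, had 2.39 or 23.9 FPKM in LATS2 OE cells and 2.23 or 22.3 FPKM in untreated cells, a log2 ratio of 0.10. Over the 5 subunits the median log2 ratio was 0.06, with 4 genes above 0 and 1 below. NFKB2, RELB and NFKBIA are among the known NF-kB target genes.

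Among the classical inhibitors, NFKBIA had 7.78, 77.8 or 778 FPKM in LATS2 OE cells and 6.25, 62.5 or 625 FPKM in untreated cells. NFKBIE, which encodes IkB-epsilon, had 9.16, 91.6 or 916 FPKM in LATS2 OE cells and 8.23, 82.3 or 823 FPKM in untreated cells, a log2 ratio of 0.16. NFKBIB, which encodes IkB-beta, had 2.14, 21.4 or 214 FPKM in LATS2 OE cells and 2.18, 21.8 or 218 FPKM in untreated cells, a log2 ratio of -0.03. The inhibitor genes thus did not share 1 ratio, and NFKBIA had the highest of the 3. Reads of NFKBIB are uncertain, because 4 annotated exons of SIRT2 on the opposite strand overlap its exons and the library kit named by the authors does not mark strand.

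Of the nuclear cofactors, only BCL3 differed by more than 1.5-fold. NFKBIZ, which encodes IkB-zeta, a cofactor needed for secondary response genes, gave 1.86, 18.6 or 186 FPKM in LATS2 OE cells and 1.82, 18.2 or 182 FPKM in untreated cells, a log2 ratio of 0.03. This value belongs to a locus that the table names for both NFKBIZ and its upstream neighbour NXPE3, so it is the sum of transcripts of both genes and does not give NFKBIZ alone. BCL3 was first known from a translocation in chronic lymphocytic leukemia and binds homodimers of p50 or p52. Relative to NFKB1, the source of p50, its ratio was 3.27-fold higher, and relative to NFKB2, the source of p52, 3.04-fold higher.

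At a threshold of 1.5-fold in either direction, 1 of the 10 genes was higher in LATS2 OE cells (BCL3) and 0 were lower. Of 11916 named loci with at least 1 FPKM in both groups, 1.23% were at least 1.5-fold higher, 1.72% were at least 1.5-fold lower, and 2.95% passed in either direction. With BCL3 at 1.62, only 10 of these loci had a higher ratio, and the count and this rank would not hold at the -1.70 that its digits alone also allow. A lower threshold, at least 25% higher or 20% lower (the inverse ratio), was reached by 4.14% of the loci upward and by 4.67% downward. BCL3 was still the only one of the 10 genes to pass it, and NFKBIA, 24.5% higher, lay just short of it. NFKBIA had a higher ratio than all but 4.28% of the loci. The ratio of NFKBIE was exceeded by 12.2% of the loci and that of REL by 17.2%. Such ranks describe where a gene lies among the loci and are no test. The median log2 ratio of the 10 genes was 0.08, against -0.0039 for all loci, and 8 of the 10 genes had a ratio above 0, against 48.5% of all loci. Without BCL3 the median was 0.06. The 5 subunits, NFKBIB, NFKBIE and NFKBIZ lay within the middle 90% of all loci, which ran from -0.31 to 0.29 on the log2 scale.

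**Figure D2:**
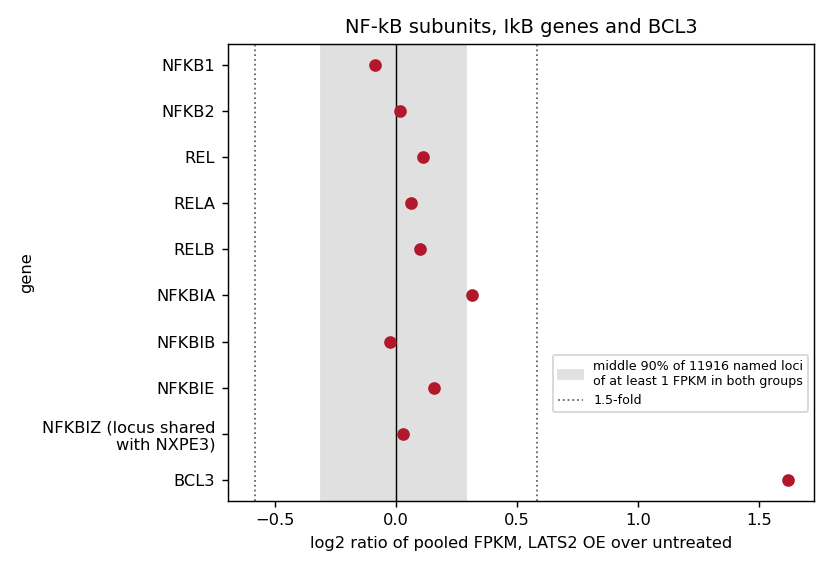
Log2 ratio of the pooled FPKM values, LATS2 OE over untreated, for the 10 genes (circles). The grey band holds the middle 90% of all named loci that reached 1 FPKM in both groups (-0.31 to 0.29) and the dotted lines mark 1.5-fold. BCL3 lies at 1.62, NFKBIA at 0.32 just outside the band, and the other genes lie inside it.

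BCL3 lies on chromosome 19, between 45251978 and 45263302 in hg19, a protein-coding gene of the plus strand with no other annotated gene inside its locus. RELB lies 241388 bp further along the same chromosome. Among 16 other loci that reached 1 FPKM with their middle within 500 kb of BCL3, 0 were 1.5-fold higher or lower. Their log2 ratios ran from -0.45 at PVR to 0.10 at RELB, with a median of -0.08. NFKBIA, also protein-coding, lies on the minus strand of chromosome 14 between 35870716 and 35873960. The 7 loci around it within the same distance had log2 ratios from -0.04 to 0.06. Among loci that reached 1 FPKM, neither BCL3 nor NFKBIA was thus part of a stretch of neighbours with like ratios. The nearest such loci were BCAM, at 60.9 kb from the middle of BCL3, and PSMA6, at -105 kb from that of NFKBIA. Genes below 1 FPKM were not looked at.

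**Figure D3:**
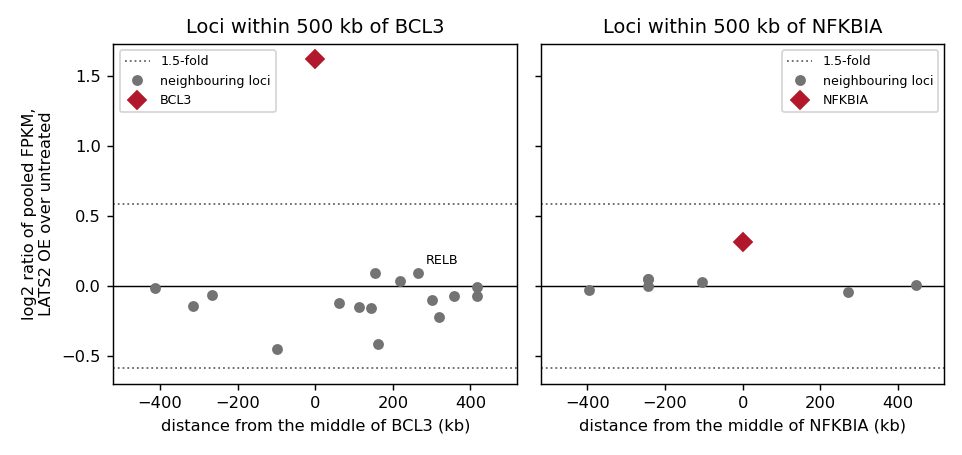
Log2 ratio of pooled FPKM, LATS2 OE over untreated, against the distance in kb from the middle of BCL3 (left) and NFKBIA (right), for each named locus that reached 1 FPKM in both groups and lies within 500 kb. BCL3 at 1.62 lies above its 16 neighbours, which lie between -0.45 and 0.10, and NFKBIA at 0.32 above its 7 neighbours, which lie between -0.04 and 0.06. Some neighbours share 1 middle and so 1 distance, namely BLOC1S3 and TRAPPC6A on the left and FAM177A1, KIAA0391 and PPP2R3C on the right.

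The other chromosomal positions of the family in hg19 are as follows, all of protein-coding genes. NFKB1 lies on chromosome 4 from 103422486 to 103538460 and NFKB2 on chromosome 10 from 104153867 to 104162286. REL lies on chromosome 2 from 61108630 to 61155690, RELA on chromosome 11 from 65421067 to 65430443 and RELB on chromosome 19 from 45504690 to 45541559. NFKBIE lies on chromosome 6 from 44225882 to 44233525. The locus of NFKBIB on chromosome 19, from 39369195 to 39399540, takes in SIRT2, which has a row of its own, while the annotated gene starts at 39390340. The locus of NFKBIZ and NXPE3 on chromosome 3 runs from 101498009 to 101579869, and the annotated NFKBIZ starts at 101546835.

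The genes listed for the IKK complex, the IkB ubiquitin ligase and the non-canonical branch all stayed within 1.5-fold. Of 12 genes of the IKK complex and its upstream kinases, all of at least 1 FPKM in both groups, 0 passed 1.5-fold, and the median log2 ratio was -0.01. The kinases MAP3K14 (NIK, which starts p100 processing) and MAP3K8 (TPL2) had the values farthest from 0, -0.16 and 0.14. Of 5 genes of the ubiquitin ligase that marks phosphorylated IkB for destruction, 0 passed 1.5-fold, and its substrate receptors BTRC and FBXW11 had log2 ratios of 0.14 and -0.12. Of 10 receptors and regulators of the non-canonical branch, 0 passed 1.5-fold and 2 (20%) were at least 25% higher, beside 4.14% of all loci. These were TNFRSF11A, the receptor RANK, with a log2 ratio of 0.45, and the ubiquitin ligase gene BIRC3 (cIAP2) with 0.45.

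Listed nuclear regulators of RelA and further genes around the IkB family also stayed within 1.5-fold. Of 12 nuclear regulators of RelA, 0 passed 1.5-fold and 1 was at least 20% lower, beside 4.67% of all loci. This was PDLIM2, a ligase that targets nuclear RelA, with a log2 ratio of -0.36, and the deacetylase gene SIRT1 had one of 0.23. Of 6 other genes, not all of them IkB-like, 0 passed 1.5-fold. The values farthest from 0 were those of NFKBID, a further nuclear IkB protein, at 0.19 and NKIRAS2, a Ras-like protein that binds IkB-beta, at -0.11. Of 9 genes for known binding partners or modifiers of BCL3, 0 passed 1.5-fold and 8 lay within 0.1 of 0 on the log2 scale. PIR, a nuclear BCL3 binding protein whose locus is shared with FIGF, had a log2 ratio of 0.12, and GSK3B, a kinase that marks BCL3 for turnover, one of 0.06.

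Textbook NF-kB target genes showed both directions. Of 40 listed genes 31 had at least 1 FPKM in both groups. Of these, 3 were at least 1.5-fold higher and 3 at least 1.5-fold lower in LATS2 OE cells, beside 1.23% and 1.72% of all loci. CSF2 (GM-CSF), TRAF1, an adaptor of TNF receptors, and the adhesion molecule VCAM1 were higher, with log2 ratios of 1.09, 1.03 and 0.95. IL6 was lower at -1.08. Its locus is named for IL6 alone, but it spans 99119 bp and overlaps STEAP1B and an antisense RNA, by an extent not measured here. The chemokine genes CXCL1 and CXCL8, named here after their values were seen, were lower at -0.94 and -0.59. The ratios of these target genes also rest on the ratio cell, as does that of BCL3. The ratios of 23 of the 31 genes were above 0 and those of 8 below, with a median log2 ratio of 0.22, against -0.0039 for all loci. At the lower threshold, 10 of the 31 target genes (32.3%) were at least 25% higher and 4 at least 20% lower, beside 4.14% and 4.67% of all loci. TNFAIP3, which encodes the feedback inhibitor A20 and was also named after its value was seen, had a log2 ratio of 0.03. BCL3 had a higher ratio than each of these 31 genes.

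**Figure D4:**
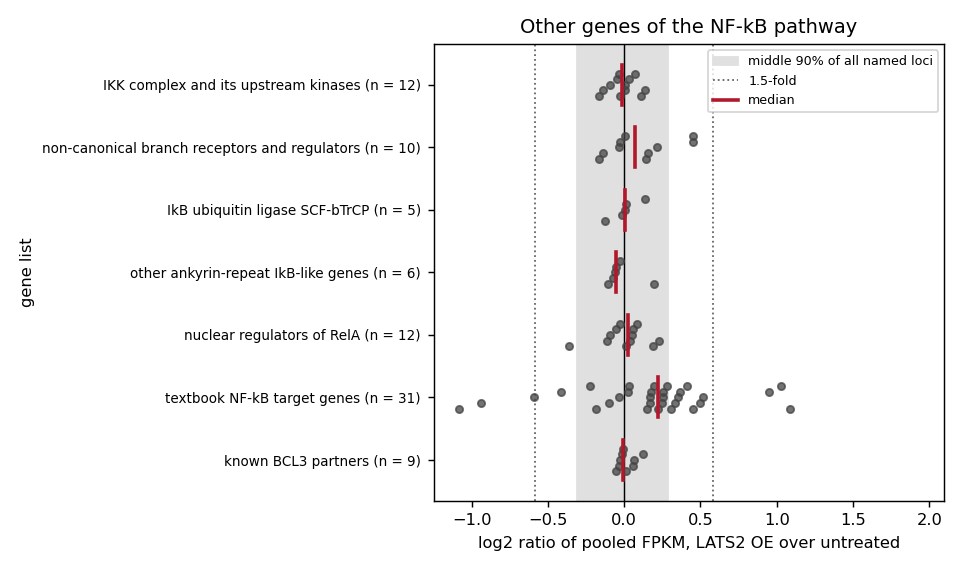
Log2 ratio of pooled FPKM, LATS2 OE over untreated, for genes of 7 lists of the NF-kB pathway with at least 1 FPKM in both groups (circles, n beside each list), with the median of each list as a vertical bar and the middle 90% of all named loci in grey. The target genes spread from -1.08 to 1.09 with a median of 0.22, while the genes of the other lists lie between -0.36 and 0.45.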

How the data were processed

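Poly(A) RNA of 8 samples (4 LATS2 OE, 4 untreated) was sequenced by the authors as single reads, trimmed with Trimmomatic (version 0.33), aligned to hg19 with TopHat and summarised with the Cufflinks package. The versions of both tools and the gene annotation were not named in these sources. The authors deposited 1 gene table with 1 pooled FPKM value per group, so no depth or value per sample and no SD could be taken from it. Whether samples of 1 group were separate cultures is also unstated. The table also holds the authors' own log2 ratios, test statistics, p-values and q-values. None of these is printed or compared, and the tests, p-values and q-values were not used. The log2 ratios served only as the key described next, on which the ratios given here rest, the direction of BCL3 among them.

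The decimal point was lost from FPKM cells of 1 to 1000 with at least 3 digits behind it. It was put back (Python 3.11.15) where both FPKM values fitted the authors' ratio cell, read as a key to the place of the point, within 0.002 on the log2 scale. This left 1 ratio for 20635 of 20636 loci above 0 in both groups, with 1 possible level for 8882, 2 for 2160 and 3 for 9593 of them. All ratios given here were computed from the FPKM values with no pseudocount. The step was tested on simulated data that lost their points by the rule it assumes. That cannot show whether the deposited cells followed this rule. Loci were kept at 1 FPKM or more in both groups, and a fold of 1.5 was the threshold.

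The 10 genes and the lists were chosen with earlier results of these data known. All 10 are named, with LATS2 and, from each list, up to 4 genes past 1.5-fold by size of ratio or, where none passed, the 2 farthest from 0. MAP3K14, BIRC3 and CYLD stand in 2 lists. Positions were set beside GENCODE lifted to GRCh37, which is the build of hg19. Other pseudocounts, centring, tolerances, folds and filters were tried as alternatives. Values of some podocyte markers are not reported here.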

Additional observations from a re-analysis of the deposited data

How the results depend on the processing

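The 10 log2 ratios were recomputed with a pseudocount of 0.1 or 1 FPKM, centred on the median of all loci, with a tolerance of 0.01, and with the decimal point placed by the smallest change in place of the ratio cell. Of these 50 values, 0 changed side of 0 and 1 moved by 0.1 or more, namely BCL3 at 1.42 with a pseudocount of 1 FPKM at its lowest possible level. A pseudocount cannot change the side of 0, and centring on a median of -0.0039 is too small a shift to do so here. The wider tolerance and the smallest change left all 10 ratios as they were. The count of 0 thus says little about how firm the directions are. BCL3 was the 1 gene past the threshold under every alternative, a fold of 2 and the lower threshold of 25% higher or 20% lower included. Its digits alone also allow a log2 ratio of -1.70, so its direction rests on the ratio cell or, barely, on the smallest change, a rule that would put LATS2 at 1.01. The share of all loci past the threshold was 13.7% among all named loci above 0 in both groups, 5.04% at a minimum of 0.1 FPKM, 8.81% at the lower threshold and 0.864% at 2-fold, as fewer or more loci and other folds enter. No paired analysis was possible because the table holds 1 pooled value per group, and for the same reason no replicate could be left out. Depth per sample and replicate spread, which limit small ratios such as that of NFKBIA, are not known from the table.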
